A study of Mus musculus with 50 samples.

Results

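Among the 136094 regions of open chromatin found in both E13.5 libraries of mouse spinal motor neurons, 30873 had no peak in any library of the other 6 ages and were therefore open only at E13.5, a share of 22.7%. They were taken from the 179718 intervals called in E13.5 replicate 1, where an interval listed with several summits was counted once at its highest −log10 p. An interval was kept at a −log10 q of at least 2 (164342 intervals), where q is the p-value corrected for the number of positions tested, and when it shared at least 1 bp with a peak of replicate 2. It was then set aside when it shared at least 1 bp with any listed peak at E10.5, P4, P13, P21, P56 or 2 years. The remaining 105221 regions of both E13.5 libraries, open also at another age, are called shared regions here. The regions were thus selected on their measured peaks, and their presence at E13.5 and absence at the other ages are a description and not a result.

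Open chromatin was mapped by ATAC-seq in 14 in vivo libraries, 2 at each of 7 ages, and RNA was sequenced in 18 in vivo libraries, with 2 samples at E13.5, P13 and 2 years and 3 at each remaining age. All mice were on the C57BL/6 background and untreated. At E10.5, whole GFP-positive cells were sorted from embryos carrying an HB9-GFP transgene, which marks young motor neurons, with several embryos pooled per sample. From E13.5 to 2 years, nuclei came from mice with Chat-Cre and the SUN1-GFP-3xMYC nuclear tag (as the labels name it). Several animals of both sexes were again pooled per replicate. The driver, the use of nuclei and age thus change together between E10.5 and E13.5 and cannot be told apart. By the methods, nuclei for RNA came from brachial and lumbar cord, whereas E10.5 cells and nuclei for ATAC-seq also included thoracic cord. For RNA, the cord segments thus change over that step too and cannot be told apart from the rest. Chat-Cre tags cholinergic neurons of every kind and some neurons of other types. Nuclei for ATAC-seq were sorted by fluorescence, and nuclei for RNA were captured on beads, a preparation that the methods describe as less pure at E13.5 and P4, with some material from blood vessels. ATAC-seq was also done in 8 libraries of motor neurons made from 1 embryonic stem cell line of the Chat-Cre; SUN1-GFP-3xMYC genotype, 2 each at day 0 in vitro (DIV0, before co-culture), DIV7, DIV28 and DIV28 with 1 µM tetrodotoxin (TTX), the last 3 conditions grown on cortical astrocytes. The peak lists held 80386 to 189868 intervals per in vivo library, and the libraries with the most were P21 replicate 2 and E13.5 replicate 1. The RNA libraries held 3820978 to 12731260 expected counts, with 5217950 and 12731260 at E13.5. Replicates are pools of different animals, and p-values measure the spread between such pools.

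ATAC-seq uses a transposase that cuts where DNA is not wrapped tightly in nucleosomes, and most of the sites it finds away from promoters are candidate enhancers. At E13.5 spinal motor neurons have left the cell cycle, are extending axons into the limb and body wall and are sorting into columns and pools. Motor neuron enhancers are known to be bound by LIM homeodomain factors such as Isl1 and Lhx3, which read the letters TAATTA, and by Onecut factors, which read ATCAAT. The same tissue is being invaded by blood vessels, whose cells use ETS factors (AGGAAG), and embryonic red cells, whose genes use GATA factors (AGATAA), still carry nuclei at this age.

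The sequences of 6 regions are shown because the letters and loci described next turn on them. Each is the 201 bp around the summit in replicate 1, read 5′ to 3′ on the plus strand of the RefSeq GRCm38.p6 (mm10) assembly. Capitals mark the 4 runs of letters just named, or their reverse complements. The first 2 were the highest E13.5-only regions by −log10 p that held TAATTA, and the others were the highest near *Lhx3*, a motor neuron determinant, *Zpld1*, the gene with the largest share of such regions among those with the most, *Erg*, an endothelial factor, and *Hba-a1*, a globin.

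The region near Htr1b, chr9:81726669-81726869, is intergenic, 92.9 kb upstream of the gene.
Htr1b region: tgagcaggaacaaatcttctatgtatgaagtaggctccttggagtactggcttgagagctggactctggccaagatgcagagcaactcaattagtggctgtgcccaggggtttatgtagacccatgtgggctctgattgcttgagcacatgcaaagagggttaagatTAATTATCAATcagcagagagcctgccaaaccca
The region near Olfr275, chr4:52762376-52762576, is intergenic, 62.9 kb upstream of the gene.
Olfr275 region: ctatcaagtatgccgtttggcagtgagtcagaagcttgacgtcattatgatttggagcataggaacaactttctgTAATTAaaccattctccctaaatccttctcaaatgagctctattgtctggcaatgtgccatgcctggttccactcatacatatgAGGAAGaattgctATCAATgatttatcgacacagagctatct
The region near Lhx3, chr2:26169943-26170143, is intergenic, 36.5 kb downstream of the gene's nearest start.
Lhx3 region: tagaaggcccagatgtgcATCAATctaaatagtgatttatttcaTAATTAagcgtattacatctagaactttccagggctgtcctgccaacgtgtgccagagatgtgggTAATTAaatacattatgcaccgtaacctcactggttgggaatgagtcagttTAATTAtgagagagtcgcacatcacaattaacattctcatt
The region near Zpld1, chr16:55259807-55260007, is intronic, 23.3 kb downstream of the nearest start.
Zpld1 region: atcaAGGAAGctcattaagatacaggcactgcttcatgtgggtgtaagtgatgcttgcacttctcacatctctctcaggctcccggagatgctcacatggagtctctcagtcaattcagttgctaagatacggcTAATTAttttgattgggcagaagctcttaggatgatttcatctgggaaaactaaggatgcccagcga
The region near Erg, chr16:95497493-95497693, is intronic, 27.0 kb downstream of the nearest start.
Erg region: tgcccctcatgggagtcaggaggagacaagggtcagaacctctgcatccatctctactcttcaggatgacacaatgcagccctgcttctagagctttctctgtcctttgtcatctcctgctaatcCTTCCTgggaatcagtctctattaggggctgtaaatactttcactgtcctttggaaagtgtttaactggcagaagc
The region near Hba-a1, chr11:32280786-32280986, is intergenic, 2.62 kb upstream of the gene.
Hba-a1 region: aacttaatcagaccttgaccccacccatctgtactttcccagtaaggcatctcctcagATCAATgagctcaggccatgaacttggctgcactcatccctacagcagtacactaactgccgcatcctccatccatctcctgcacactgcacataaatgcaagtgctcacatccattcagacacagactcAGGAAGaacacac

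The Lhx3 region held TAATTA 3 times and ATCAAT once, and the Htr1b region held 1 copy of each, overlapping by a single base. The Olfr275 region held both and AGGAAG. Fold enrichment, the reads at the summit over the local background of the same library, was 27.4 and 19.9 in the 2 replicates for the Htr1b region and 25.9 and 15.7 for the Olfr275 region, and the Lhx3 region had 11.5 in replicate 2. The Zpld1 region reached 16.6 and 8.81. The Erg region had 10.9 and 4.47 and the Hba-a1 region 11.9 and 6.39, and other vascular genes had stronger ones, such as *Sox17* with 16.0 and 8.40. The Hba-a1 region also had a peak in 6 of the 8 libraries of cultured motor neurons, 2 of them at DIV0. The Zpld1, Olfr275 and Lhx3 regions had one in 4, 3 and 1 of these libraries, and the Erg and Htr1b regions in 0. AGGAAG was found once in the Erg, Hba-a1 and Zpld1 regions, and AGATAA in none of the 6.

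The E13.5-only regions were weaker and narrower than the shared ones. Their median fold enrichment was 5.12 in replicate 1 and 4.38 in replicate 2, against 8.75 and 6.21 in shared regions, and their median −log10 p in replicate 1 was 12.6 against 33.2. Their width had a median of 286 bp (quartiles 216 and 384 bp) against 450 bp. At the q limit, the 5 regions just inside had a −log10 q of 2.0013 to 2.0030 and a fold enrichment of 1.66 to 2.66, and the 5 just outside 1.9858 to 1.9952 and 1.89 to 2.65, and 2645 intervals met every other condition but lay below the limit. The share of E13.5 regions that were open only at that age was lower at higher signal, from 38.3% of those with a −log10 p under 10 through 32.5%, 22.2% and 10.8% to 2.15% of those at 100 or more. The last class still held 566 E13.5-only regions.

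The same rule applied to each other age in turn found far fewer regions. It found 4278 at E10.5 of the 31725 regions in both replicates of that age, 991 at P4 (1.51%), 358 at P13 (0.388%), 739 at P21 (0.655%), 174 at P56 (0.209%) and 352 at 2 years (0.389%). The number of reads behind each list is unknown, and a list from a deeper library holds more weak peaks. Past the q limit, the E13.5 lists held 164342 and 146927 intervals and those of the other ages 34057 to 157299, with the shortest at the neighbouring ages E10.5 (34057 and 69633) and P4 (85345 and 60230). The part of list length in these counts was not tested.

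**Figure D1:**
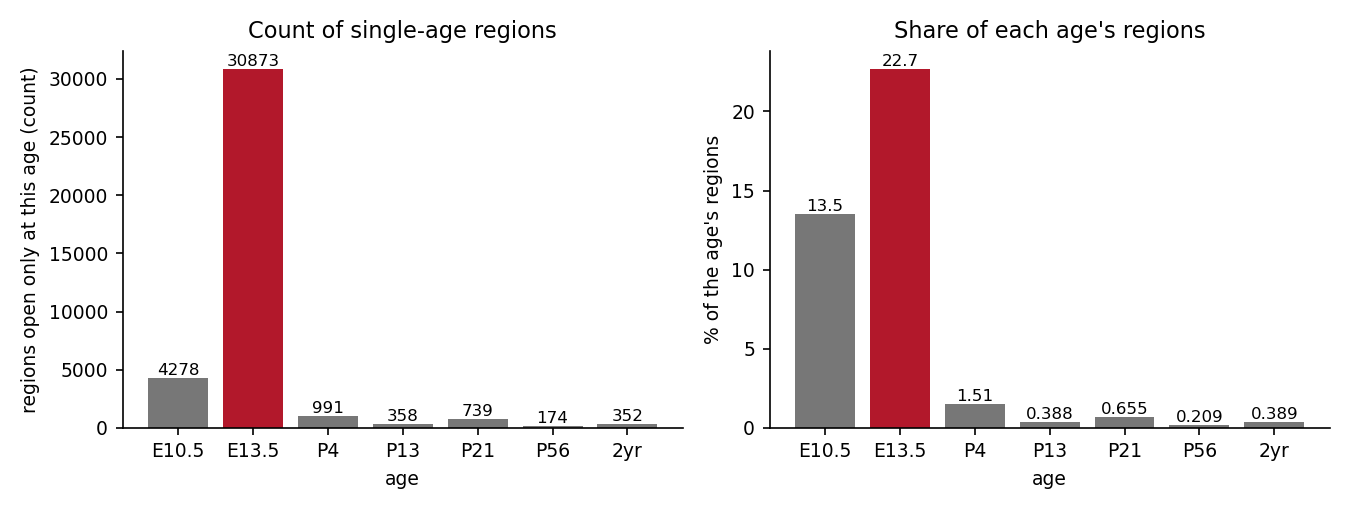
Regions open at a single age, as a count (left) and as a percentage of the regions found in both replicates of that age (right), by age. The bar for E13.5, in red, stands at 30873 regions and 22.7%, and the next is E10.5 with 4278 regions.

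The E13.5-only regions lay farther from transcription starts than the shared regions. Of them, 93.0% had their summit more than 2000 bp from any transcription start, against 75.6% of shared regions. Promoters held 7.01% of them against 24.4% of shared regions, introns 40.0% against 39.2% and intergenic sequence 51.2% against 33.7%. The median distance to the start of a protein-coding gene was 90.4 kb against 36.4 kb, and 16174 of them (52.4%) lay within 100 kb of one. The share of E13.5 regions open only at that age ran from 17.5% on chromosome 11 to 25.7% on chromosome 3 among the autosomes and was 32.6% on chromosome X. GC content around the summit averaged 42.7%, against 50.5%, and 3.17% of the windows lay mostly in repeats, against 1.53%.

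Cultured motor neurons opened a minority of these regions. At least 1 of the 8 culture libraries had a peak in 14007 of the E13.5-only regions, or 45.4% (95% Wilson interval 44.8 to 45.9%, counting error only), against 86.3% of shared regions. The culture libraries played no part in choosing the E13.5-only regions. The comparison is still not independent of the rule, since each shared region by definition had a peak at another age. How much of the difference follows from that definition was not tested. Single libraries overlapped between 11.7% (DIV28 replicate 2) and 18.9% (DIV28 TTX replicate 1) of the E13.5-only regions and between 46.0% and 64.9% of the shared ones, and the 2 ranges did not overlap. The order of culture ages did not follow a trend, with 18.5% and 16.0% at DIV0, 11.9% and 18.6% at DIV7, 15.3% and 11.7% at DIV28, and 18.9% and 15.5% at DIV28 with TTX. The DIV28 lists were longer (152667 to 224328 peaks with and without TTX) than the DIV0 lists (94520 and 80818). Both DIV0 libraries covered 4072 E13.5-only regions (13.2%), of which 2031 had no peak at DIV7 or DIV28 (6.58% of the E13.5-only regions, against 5.46% of shared ones). A peak in all 4 DIV28 libraries and in none at DIV0 or DIV7 was found for 410 (1.33%, against 2.85%). No culture library opened 16866 of them (54.6%, against 13.7%).

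The lower share was not confined to weak peaks. Within classes of −log10 p under 10, 10 to 20, 20 to 50, 50 to 100 and 100 or more, culture peaks covered 39.3%, 45.0%, 50.3%, 57.8% and 72.6% of the E13.5-only regions and 74.8%, 78.5%, 85.4%, 91.6% and 98.2% of the shared regions. The same comparison by library among distal regions gave 11.6 to 18.8% against 37.5 to 59.0%. These classes were formed after the data had been seen.

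**Figure D2:**
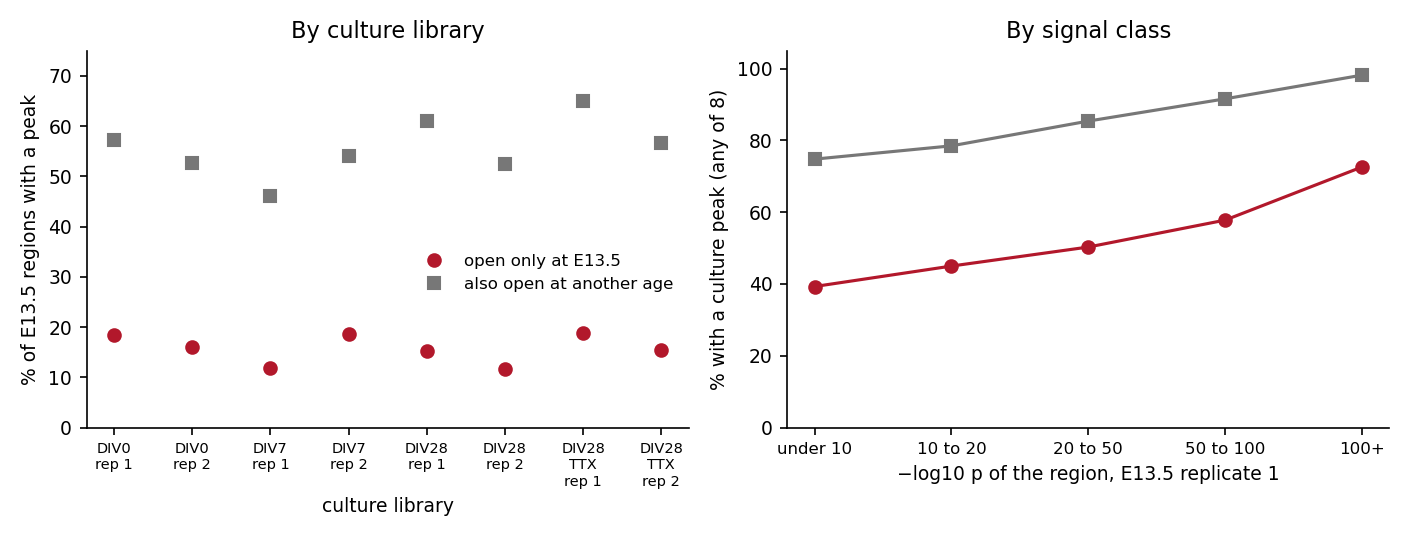
Percentage of E13.5 regions that overlap a culture peak, by culture library (left) and, for any of the 8 libraries, by −log10 p class in E13.5 replicate 1 (right); red circles are regions open only at E13.5 and grey squares regions also open at another age. Red lies below grey in all 8 libraries (11.7 to 18.9% against 46.0 to 64.9%) and in all 5 classes.

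The letters read by LIM homeodomain and Onecut factors were more frequent in the E13.5-only regions. Exact matches on either strand were counted within 100 bp of the summit, for 21 runs of letters. TAATTA stood in 16.2% of E13.5-only windows and 7.93% of shared windows. ATCAAT stood in 19.3% against 11.1%, and CATAAA, read by posterior Hox factors, in 25.5% against 16.0%. Among distal regions alone the 3 pairs were 16.3% and 9.55%, 19.5% and 13.1%, and 25.7% and 19.0%. For factors of blood and vessels, the red cell letters AGATAA were found in 14.1% against 9.34%, while the ETS letters AGGAAG were found in 20.9% of distal E13.5-only and 23.1% of distal shared regions. TGANTCA, read by the AP-1 factors that neuronal activity induces, stood in 9.28% and 9.29%. Lower shares were counted for CAGCTG, an E-box (10.3% against 16.2%), and for AGGGGGC, the core of the CTCF site (1.71% against 5.73%). A match is only a run of letters and does not show that a factor was bound.

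In regions of like base composition and signal, TAATTA was again more frequent in the E13.5-only regions, while AGATAA was not regularly so. In distal regions with a GC content under 35%, TAATTA was found in 27.4% of E13.5-only and 22.5% of shared regions, and at 50% GC or more in 6.99% and 4.48%. In the 3 classes between them it was found in 21.5% and 16.2%, 15.2% and 13.2%, and 11.7% and 9.11%. When distal regions were divided by GC content and by −log10 p together, in classes of at least 50 regions of each kind, TAATTA was more frequent in the E13.5-only regions in 23 of 24 classes, ATCAAT in 19, CATAAA in 18, AGGAAG in 18, AGATAA in 13, TGANTCA in 4 and AAAATAG (MEF2) in 0. For CATAAA the GC classes under 40% went the other way, with 40.6% against 43.9% and 32.2% against 33.5%. The classes were chosen after the data had been seen and carry no test.

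**Figure D3:**
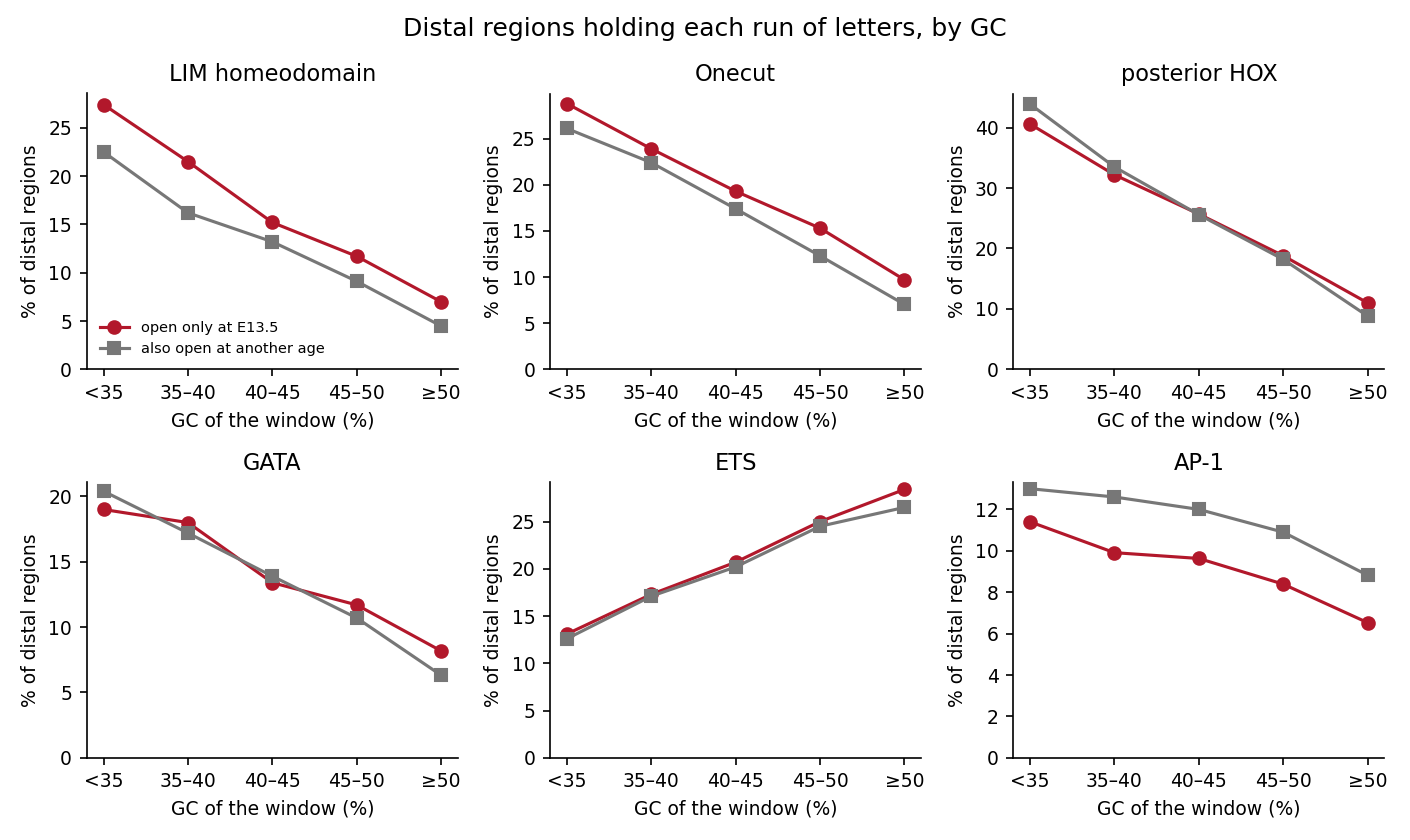
Percentage of distal E13.5 regions that hold each run of letters within 100 bp of the summit (y axes), by GC class of the window (x axes), for regions open only at E13.5 (red circles) and regions also open at another age (grey squares). The red line lies above the grey in all 5 classes for LIM homeodomain (27.4% against 22.5% in the lowest) and Onecut letters, crosses it for posterior HOX and GATA, lies slightly above it for ETS and lies below it throughout for AP-1.

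Regions that culture did and did not open differed in their letters. TAATTA was found in 19.4% of the 16866 E13.5-only regions without a culture peak and in 12.3% of the 14007 with one, whereas TGANTCA was found in 6.23% and 12.9% and ATCAAT in 17.4% and 21.6%. Among distal shared regions, too, those without a culture peak had more TAATTA, 14.1% against 9.55% in all of them. Distal regions open only at other ages had fewer TAATTA letters. The shares were 6.08% at E10.5, 5.62% at P4, 5.10% at P13, 6.42% at P21, 3.97% at P56 and 7.36% at 2 years, with between 151 and 3866 regions per age. The E10.5-only and P4-only windows were repeat-rich, with 42.7% and 38.6% of their bases in repeats against 9.60% at E13.5. Letters read by nuclear factor I (NFI), TTGGCA, were found in 15.6% of E13.5-only regions against 13.4% of shared ones. In the distal regions with a −log10 p of 100 or more, they were found in 27.0% of the 518 E13.5-only and 14.8% of the 12292 shared regions. The difference was smaller at lower signal, with 18.8% and 15.2% at 50 to 100 and 16.6% and 15.3% at 20 to 50. It was smaller still under 20. Among all distal regions the shares were 15.6% and 14.9%.

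The strongest E13.5-only regions lay near genes of varied function. The 20 highest by −log10 p had a fold enrichment of 12.2 to 36.3 in replicate 1 and of 8.50 to 21.3 in replicate 2. The highest lay at chr3:47101553-47102011, in intergenic sequence 653 kb from *Pabpc4l*, with 36.3 and 19.5. The second, chr13:99632685-99633235, lay 116 kb upstream of *Map1b*, a microtubule protein of growing axons, with 29.8 and 18.9. Of the 20, 17 were distal (93.0% of all E13.5-only regions were) and 13 lay within 100 kb of a protein-coding start (52.4% of all). In no culture library did 5 of them have a peak (54.6% of all), and 6 had one at DIV0. NFI letters stood in 13 of the 20, ETS letters in 6, TAATTA in 3 and GATA letters in none. Of all E13.5-only regions, 15.6% held NFI letters, 16.2% TAATTA and 14.1% GATA letters. ETS letters stood in 20.9% of the distal ones. With 20 regions, the ETS and TAATTA counts are near these shares.

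Assigned to the nearest protein-coding start within 100 kb, the E13.5-only regions made up 17.6% of all E13.5 regions (16174 of 91785), and 32.5% of protein-coding genes (7106 of 21842) had at least 1. Among the genes with the most were long neuronal genes: *Rbfox1*, a splicing regulator, with 30 of its 121 E13.5 regions, *Nckap5* with 29 of 73, *Pde4d*, a phosphodiesterase, with 27 of 104, and *Foxp1*, the factor that sets limb motor column identity, with 23 of 79. *Mecom*, a zinc finger regulator, had 17 of 57. *Zpld1*, which codes for a zona pellucida domain protein, stood apart in its share, with 17 of 22 regions (77.3%) open only at E13.5. They ran from 50.9 kb upstream to 97.7 kb downstream of its nearest start, at fold enrichments of 2.77 to 16.6 in replicate 1 and 2.74 to 8.81 in replicate 2, and 6 of the 17 overlapped a culture peak, as did all 5 of its shared regions.

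Genes of motor neuron identity had a share near the background. Of the regions nearest to 16 such genes, 41 of 202 (20.3%) were open only at E13.5, next to the background of 17.6%. Within the list *Nkx6-1*, a ventral homeodomain factor, had 9 of 23, *Isl1* 7 of 16, *Slc5a7*, the choline transporter, 5 of 20, and *Isl2*, *Lhx4* and *Lhx3* 4 of 9, 4 of 23 and 3 of 13. Lower shares were counted at *Onecut1* (2 of 14), *Ebf1* (2 of 15), *Mnx1* (2 of 16) and *Ret* (1 of 14). Of the 16 genes, 11 had at least 1 such region. At Nkx6-1, the E13.5-only regions included the highest of its 23 in replicate 1, at 18.6 kb upstream with a fold enrichment of 27.0 and 13.1, and another at 61.5 kb downstream with 11.3 and 8.31. At Isl1, where the start itself was shared (19.7 and 10.7), the highest E13.5-only region lay 29.9 kb downstream with 12.2 in replicate 1, and 4 others lay upstream of the gene, at fold enrichments of 4.02 to 7.04. Among 23 genes of motor columns and pools the count was 59 of 259 (22.8%), led by Foxp1 and by *Cpne4* with 10 of 27. *Runx1* had 5 of 22 and *Aldh1a2*, which makes retinoic acid in limb-level motor neurons, 2 of 9. Runx1 is also on the list of GATA factors and their partners in blood, where its 5 regions count too. Among 30 genes of axon guidance it was 126 of 602 (20.9%), led by the receptor *Robo2* with 13 of 33 and its ligand *Slit2* with 11 of 48.

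**Figure D4:**
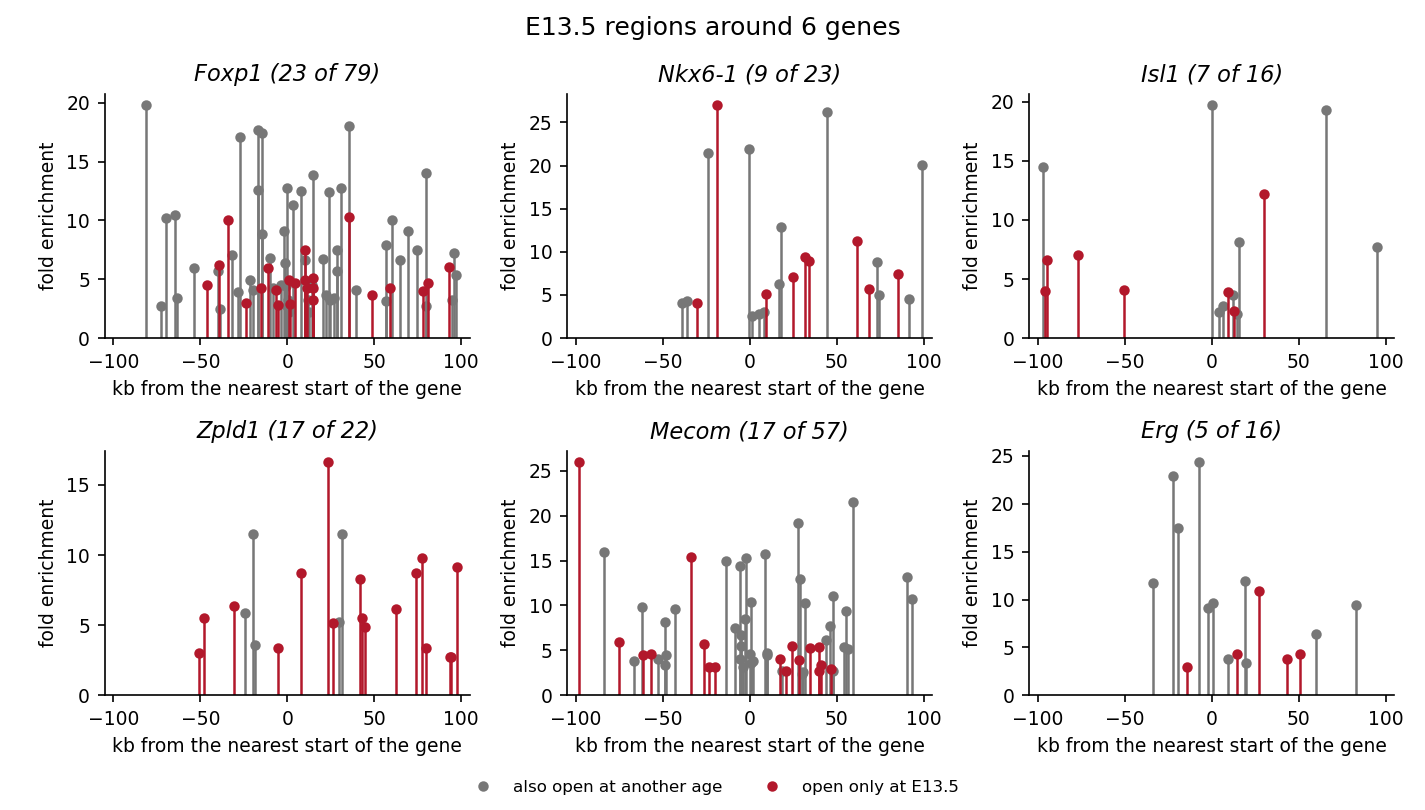
E13.5 regions assigned to 6 genes, by distance from the nearest start of the gene in kb (x axes, negative upstream) and fold enrichment in replicate 1 (y axes); red marks regions open only at E13.5 and grey regions also open at another age, with the number of red regions of all regions in each title. Red regions flank the shared start of Isl1, make up 17 of the 22 at Zpld1, and include the highest at Nkx6-1 (27.0) and Mecom.

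Vascular and blood genes had shares on both sides of the background. Endothelial genes had 45 E13.5-only regions of 202 (22.3%), spread over 20 of 35 genes, with 5 at *Erg*, 3 each at *Kdr* and *Fli1* and 2 each at *Cdh5* and *Pecam1*. Erythroid genes had 10 of 48 (20.8%), over 9 of 25 genes. Pericyte and smooth muscle genes had 14 of 81 (17.3%) and macrophage genes 8 of 51 (15.7%). Lists with higher shares were those of cartilage (34 of 111, 30.6%, of which 14 were at *Sox5* and 7 at *Sox6*, which neurons also express) and of fibroblasts and meninges (27 of 91, 29.7%, with 8 at *Postn*). Neural progenitor genes had 12 of 102 (11.8%). The median fold enrichment of the vascular and blood members ran from 4.91 (endothelial) to 6.29 (pericyte), against 5.12 for all 16174. Of the 45 endothelial regions, 23 overlapped a culture peak (51.1%, against 47.6% of the 16174). ETS letters stood in 8 of them (17.8%, against 22.1%) and GATA letters also in 8 (17.8%, against 13.9%). The strongest member at a macrophage gene lay at *Ptprc*, the pan-leukocyte CD45, with a fold enrichment of 19.6 and 11.0. Each list holds at most 35 of the 21842 protein-coding genes, so these counts cannot measure the vascular or blood part of the 16174 regions.

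RNA came from other libraries than the peaks. Expected counts were fitted over the 18 in vivo libraries with edgeR's quasi-likelihood test on the 15030 genes that reached 5 CPM, a count scaled to library size, in all replicates of some age. A gene was counted as changed when its unadjusted p was below 0.001 and it differed 2-fold or more, the study's limits. Of the 7106 genes with an E13.5-only region, 4557 were tested, and 11438 of the 16174 regions were nearest to one of them. The filter keeps genes by their level at any age, so the counts below cover expressed genes alone. A gene that reached 5 CPM at E13.5 alone was tested too, and its higher call there partly follows from the filter. The number of such genes was not counted.

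Genes with an E13.5-only region were not particular to E13.5 in their RNA. Against the mean of the other 6 ages, 1159 of the 4557 were higher at E13.5 (25.4%, against 23.7% of all genes tested) and 988 were lower (21.7%, against 21.7%), with a median log2 fold change of -0.03 against -0.14. The differences were larger at single steps. Against E10.5, 1370 rose (30.1%, against 24.6% of all genes) and 792 fell (17.4%, against 19.4%). From P4 looking back, 753 were higher at E13.5 (16.5%, against 19.0%) and 1181 were lower (25.9%, against 23.8%). Genes with E13.5 regions of the shared kind alone rose from E10.5 in 17.7% of cases and were lower than at P4 in 14.5%, whereas genes nearest to no E13.5 region at all had 33.3% and 42.8%. The 3 comparisons share the E13.5 libraries. Genes higher at E13.5 than at both neighbouring ages numbered 293 (6.43%, against 5.44%), whereas 655 rose from E10.5 and did not pass the limits between E13.5 and P4 (14.4%, against 11.2%).

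The share of genes that rose from E10.5 was larger among genes with more E13.5-only regions, before the number of regions of any kind was considered. Of genes with 1, 2 to 4, 5 to 9 and 10 or more, 26.2%, 31.9%, 36.5% and 37.9% rose from E10.5 (1975, 2007, 480 and 95 genes). The shares lower than at P4 were 20.5%, 27.8%, 36.9% and 43.2%. Genes with many such regions also had many shared regions, so genes were compared within classes of the number of E13.5 regions of any kind, a division made after the data had been seen. With 1 to 4 regions, 28.0% of the 955 genes with an E13.5-only region rose from E10.5, against 16.6% of the 6302 without one. With 5 to 9 it was 31.1% of 1584 against 23.9% of 899, and with 10 to 19 it was 29.6% of 1447 against 25.8% of 190. Among genes with an E13.5-only region the share thus did not grow steadily over these classes, and the difference from the other genes narrowed. For genes lower at E13.5 than at P4 the shares were 16.6% against 13.2% in the first class and 29.5% against 26.8% in the last.

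Motor neuron genes with E13.5-only regions took several courses. Values for single genes are normalised counts, in which a library's expected counts are scaled by its median-of-ratios size factor. The adjusted p beside a gene is the Benjamini-Hochberg value from edgeR's quasi-likelihood test, taken over every gene tested. Foxp1 had 992 and 1032 at E13.5, 480 to 1374 at E10.5, 455 to 641 at P4 and 155 to 230 at the 4 later ages. The E13.5 values lay within the E10.5 range and above every library from P4 on. Against the other 6 ages its log2 fold change was 1.64 (SE 0.21, adjusted p = 1.9e-06, n = 2 and 16), and against E10.5 it was -0.02 (SE 0.29, adjusted p = 0.96).

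Mecom was named for its many regions and is on neither the motor neuron nor the column and pool list. It was at 643 and 902 at E13.5, above all libraries of the other ages. E10.5 held 133 to 223, P4 203 to 278 and later ages 31.4 to 48.9. Mecom was higher than at E10.5 by a log2 fold change of 1.96 (SE 0.21, adjusted p = 3.3e-07) and than at P4 by 1.51 (SE 0.21, adjusted p = 7.7e-06). Aldh1a2 had 761 and 322 at E13.5, 362 to 581 at E10.5 and 64.7 to 128 at P4. Its E13.5 libraries differed by more than those of E10.5, and the fall to P4 passed the limits (log2 fold change of E13.5 over P4 2.34, SE 0.35, adjusted p = 1.4e-05). *Etv4*, an ETS factor of some motor pools, had 52.5 and 46.4, against at most 17.8 at E10.5 and 16.4 to 28.8 at P4. Its difference from E10.5 was 1.61 on the log2 scale (SE 0.41, adjusted p = 0.0019), and that from P4, 1.07 (SE 0.41, adjusted p = 0.028), did not pass the limits. The first call was lost when either E13.5 library was left out (1.71 without replicate 2).

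Nkx6-1, in contrast, had 832 to 1010 at E10.5 and dropped to 32.2 and 31.5 at E13.5 (log2 fold change -4.94, SE 0.22, adjusted p = 1.8e-11), and the libraries of the 2 ages did not overlap. Lhx3 had 387 to 466 at E10.5, 16.6 and 25.4 at E13.5 and 6.77 to 8.77 at P4. The fall from E10.5 was -4.36 (SE 0.29, adjusted p = 7.7e-10). Isl1 fell less, from 642 to 994 at E10.5 to 584 and 306 at E13.5 (SE 0.23, adjusted p = 0.0008 on a log2 fold change at the limit of 2-fold). That call was lost without E13.5 replicate 2, at -0.60, and under several other settings. Of the 11 motor neuron genes with an E13.5-only region, 9 fell from E10.5 to E13.5 and 1, Slc5a7, rose. Slc5a7 had 14.9 to 51.0 at E10.5, 529 and 215 at E13.5 and 1433 to 1702 at P4, so its level at E13.5 lay between those of the neighbouring ages (log2 fold change against E10.5 3.26, SE 0.35, adjusted p = 2.8e-07, and against P4 -2.26, SE 0.34, adjusted p = 1.5e-05). Of 14 tested column and pool genes with such a region, 6 rose and 4 fell over that step, next to 24.6% and 19.4% of all genes, and 3 rose without E13.5 replicate 1. Runx1, which is also on the list of GATA factors and their partners in blood, was among the 6 (log2 fold change 4.83, SE 0.41). Of 28 axon guidance genes with an E13.5-only region, 4 rose and 9 fell.

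Several long neuronal genes with the most regions had their highest RNA after E13.5. *Anks1b*, a synaptic scaffold, had 39.0 to 59.1 at E10.5, 453 and 180 at E13.5, 1236 to 1428 at P4 and 993 to 1351 later. It rose from E10.5 by 2.52 on the log2 scale (SE 0.27, adjusted p = 2.6e-07) and stood below P4 (log2 fold change -2.22, SE 0.27, adjusted p = 1.4e-06). *Tnr*, a matrix protein of nerve tissue, had 44.0 to 193 at E10.5, 266 and 164 at E13.5 and 627 to 774 at P4. The E13.5 libraries of both genes lay below every library from P4 on, although for Tnr the difference from P4 missed the limits without E13.5 replicate 2 (log2 fold change -1.53). Zpld1, despite its 17 regions, was barely detected in these nuclei, at 3.68 and 3.50 normalised counts at E13.5 and 0 to 3.29 in all other libraries, and was not tested. Near the strongest regions, *Laptm4b*, a lysosomal membrane protein with a region at its promoter (fold enrichment 12.2 and 8.50), had 302 and 386 at E13.5, above all 16 other libraries (60.3 to 194). *Dmac1*, a mitochondrial assembly factor, had 209 and 249, against 10.6 to 91.5 elsewhere (log2 fold change 2.59, SE 0.19, adjusted p = 9.3e-10). *Slc38a9*, a lysosomal amino acid sensor, was lower at E13.5 (169 and 147) than at P4 (283 to 317), with a log2 fold change of -1.06 (SE 0.13, adjusted p = 1.9e-06) that came under 2-fold without E13.5 replicate 2 (-0.95) or with other size factors. The NFI gene *Nfib*, with 6 E13.5-only regions, had 23.4 to 88.2 at E10.5, 1229 and 1212 at E13.5 and 1014 to 1193 at P4.

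Vascular and red cell RNA was high in the E13.5 libraries. All 20 endothelial genes with an E13.5-only region were higher at E13.5 than over the other 6 ages, 19 were higher than at E10.5 and 11 were higher than at P4, next to 23.7%, 24.6% and 19.0% of all genes tested. Without E13.5 replicate 2 the last count was 6, and without replicate 1 it was 13. Pecam1 had 1856 and 3599 at E13.5, 625 to 799 at P4, 49.0 and 54.5 at P13 and 1.38 to 13.9 at later ages, and 2.39 to 7.80 at E10.5. It was higher than at P4 by 1.82 (SE 0.24, adjusted p = 4e-06). Kdr, the main receptor for vascular endothelial growth factor, had 4696 and 9866 at E13.5 and 1773 to 2424 at P4 (SE of the log2 fold change 0.27, adjusted p = 2.7e-05). Cdh5, the cadherin of endothelial junctions, was at 0 in all 3 E10.5 libraries and at 3508 and 6019 at E13.5. Hba-a1, an adult alpha globin, had 2609 and 2782 at E13.5, 177 to 249 at P4 and at most 2.39 at E10.5. *Rgs5*, a pericyte marker, had 1105 and 1140 at E13.5 and more at P4, 2115 to 3477 (log2 fold change -1.39, SE 0.27, adjusted p = 0.00018).

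Summed over all 35 genes of the endothelial list, the E13.5 libraries held 29829 and 58250 normalised counts, the P4 libraries 13538 to 18063, the P13 libraries 1007 and 1364 and the P21 to 2-year libraries 164 to 382. At E10.5 the sum was 2906 to 4350, with Cdh5 at 0. Over the whole list, 34 of 35 genes were higher at E13.5 than over the other 6 ages, as were 10 of 13 tested erythroid genes, all 13 tested pericyte and smooth muscle genes and all 12 tested fibroblast genes, next to 23.7% of all genes. The CPM filter admits genes through E13.5 alone, which favours such calls, so these shares are a description and not a test. The erythroid sum was 19163 and 23144 at E13.5 and 702 to 4755 at the other ages. The motor neuron list was detected at E13.5 in all its 16 genes, with a sum of 2731 and 4445 against 6512 to 7303 at P4 and 7149 to 11267 at E10.5. Fewer nuclei of a type and less RNA per nucleus cannot be told apart in such bulk samples. The ATAC-seq nuclei were prepared separately and by sorting, which by the methods gave purer nuclei at E13.5 than the beads did. The part of vascular or blood nuclei in the E13.5-only regions was not tested. E13.5 RNA replicate 2 had the larger endothelial sum and replicate 1 the larger values of Slc5a7 and Anks1b, so many genes of either kind spread widely between the 2 E13.5 libraries.

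**Figure D5:**
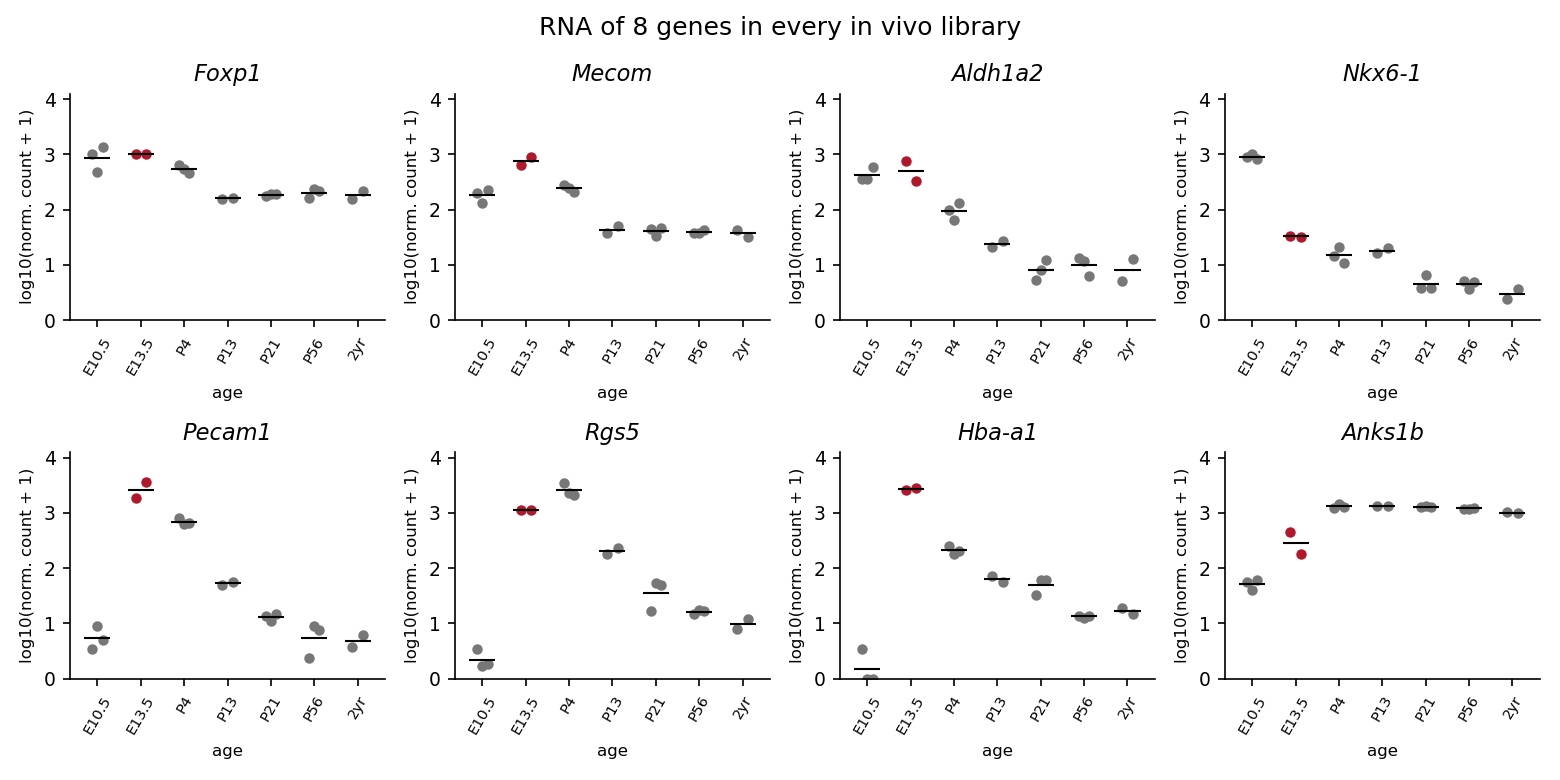
RNA of 8 genes nearest to at least 1 E13.5-only region, as log10 of normalised count plus 1 (y axes) by age (x axes); points are libraries (2 or 3 per age), red at E13.5, and bars are means of the log values. Mecom, Pecam1 and Hba-a1 are highest at E13.5, Rgs5 is highest at P4, Foxp1 and Aldh1a2 are as high at E10.5 as at E13.5, Nkx6-1 is highest at E10.5 and Anks1b is lowest at E10.5, next lowest at E13.5 and high from P4 on.

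Among the genes with an E13.5-only region, the 10 with the highest log2 fold change of E13.5 over the other 6 ages were *Mmrn1*, *Cdh5*, *Clec1b*, *Pcdh12*, *Erg*, *Icam2*, *Kdr*, *Cd93*, *Hbb-bt* and *Foxf2*, most of them known from endothelium, with platelet-linked Mmrn1 and Clec1b, a beta globin and a pericyte factor among them. Clec1b, at 58.9 and 197 in the E13.5 libraries, was not called by DESeq2 (adjusted p = 0.085). Mmrn1 had 380 and 829 normalised counts at E13.5, 12.5 to 21.4 at P4 and at most 1.56 elsewhere. Mmrn1 and Clec1b had 3 counts or fewer at E10.5, P13, P21, P56 and 2 years, so their fold changes rest on values near 0. Genes like these can pass the CPM filter through E13.5 alone, and their place at the top partly follows from the filter. The 10 with the lowest were *Gfap*, *Kcng4*, *Mobp*, *Hgf*, *Aox1*, *Adgb*, *Rasgrf1*, *Trim66*, *St8sia5* and *Rab37*, among which Gfap, the astrocyte filament, was at 0 in both E13.5 libraries and at 686 to 1115 at P4, and Mobp is a myelin protein. Of the other factor lists, 7 of 11 ETS genes with an E13.5-only region were higher at E13.5 than over the other 6 ages and 0 were lower (23.7% and 21.7% of all genes), led by Erg, Fli1 and *Ets1*. Erg, Fli1 and Ets1 are also on the endothelial list and were counted there. All 3 NFI genes with such a region were higher than at E10.5, as were 24.6% of all genes, and none passed the limits against P4.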

How the data were processed

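Per the labels and the study's methods, the authors trimmed ATAC-seq reads with Trim Galore (cutadapt 0.6.2), aligned them to mm10 with BWA 0.7.1.7, removed duplicates with SAMtools 1.7.2 and called peaks per library with MACS2 2.2.7.1 at a p limit of 0.01. The deposited peak lists give each summit its fold enrichment over the local background (a ratio), with −log10 p and −log10 q values. The number of reads per library is not given in the sources used here. RNA reads were aligned by the authors with STAR 2.5.2b and counted with RSEM 1.3.0, and the deposited files hold expected counts and TPM per gene; TPM values were not used in a comparison.

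From these files, the regions were selected as described in the report, with overlaps in Python 3.11.15 and a check in bedtools 2.31.1. Sequences came from RefSeq GRCm38.p6 and gene starts from GENCODE vM21. Every E13.5 region was assigned the nearest protein-coding start within 100 kb of its summit. Expected counts were rounded and fitted with edgeR 4.0.16 (R 4.3.3), TMM factors and 1 coefficient per age over the 18 in vivo libraries, with Benjamini-Hochberg adjustment, and DESeq2 1.42.0 as an alternative. The search for letters was tested on made sequences and the edgeR fit on simulated counts. Wilson intervals cover counting error only.

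The genes named were drawn by rule from those nearest the 20 regions with the highest −log10 p, the 15 with the most E13.5-only regions, the vascular, blood and motor neuron genes with at least 1, the tested GATA-partner, ETS and NFI genes, and the 10 genes each with the highest and lowest log2 fold change against the other 6 ages among those past the limits. Pabpc4l, Map1b, Robo2, Slit2, Sox5, Sox6 and Postn lie outside the rule and were named after their values were seen. The members and gene lists were chosen with earlier results of these data known. One RNA sample whose label and file name give different culture days was left out, and no culture RNA was compared. Peak lists of nearby ages were not pooled. One gene that met the rule is not reported here.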

Additional observations from a re-analysis of the deposited data

How the results depend on the processing

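The number of E13.5-only regions was 28320 at a −log10 q of at least 3 and 24166 at 5, 34839 with overlaps of at least 50% of the interval, 29428 from replicate 2, 40072 when only other-age peaks past the q limit counted, 22417 with no such peak within 1000 bp, and 31072 to 44145 with a library left out, the last without E13.5 replicate 2. Their culture share was 40.9% with a 50% overlap, 39.1% with culture peaks past the q limit and 42.0% to 45.0% without 1 library. Of the 21 runs of letters, 20 kept their direction with replicate 2 summits (all but AP-1) and 18 among distal regions alone (all but RUNX, SOX and the steroid receptor). Leaving out repeat-rich windows, added after the data had been seen, moved no share of letters beyond its counting interval.

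Counts of called genes with such a region, 2147 against the other 6 ages, 2162 against E10.5 and 1934 against P4, were 1233, 1265 and 1102 when regions were assigned within 20 kb, where fewer genes were tested, and 1341 against E10.5 when those 2 ages were fitted alone. Without 1 library they ran from 1727 to 2332, 2022 to 2191 and 1469 to 2071, each lowest without E13.5 RNA replicate 2; the lone E13.5 sample was then assumed to vary like the other ages. With no filter beyond 1 count, 64.9% of the calls against the 6 ages were higher at E13.5 (54.0% as reported) and 49.3% against P4 (38.9%). With the nearest gene of any type the 2 shares were 46.3% and 28.1%, so lower calls then outnumbered higher ones against the 6 ages. Replicate numbers did not pair the libraries, since same-numbered libraries of different ages correlated at -0.137 to 0.151, and a replicate block gave 2133, 2129 and 1863 calls. Across 339 gene comparisons, 249 kept their call in every alternative, 129 alternative values lost a call, 95 gained one and 0 changed sign. The unknown read depth of the peak lists limits any statement that a region was closed at another age.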
